A study of Mus musculus with 3 samples.

Results

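The genes examined here are Myc, Mycn and Mycl1, which encode the Myc transcription factors, and Ccnd1, Ccnd2 and Ccnd3, which encode the D-type cyclins. These 6 of 22359 annotated protein-coding genes were taken as a fixed list, and every peak that overlaps the gene or lies within 200 kb of its start was kept. This gave 40 of the 20479 RNA polymerase II (RNAP2) peaks and 21 of the 10634 Med12 peaks of the deposited lists. The peaks come from ChIP-seq on chromatin of distal forelimbs collected from mouse embryos at E12.5, wild-type by the study's methods and untreated, with 1 library per antibody and an input library for which no peak list was used. Cells were freed with collagenase and fixed with formaldehyde. The series text gives another stage, and that of the sample labels is used. The tissue is a mixture of cells, in which fewer bound cells and weaker binding per cell cannot be told apart. There are no replicates and no second condition, so no value has a replicate error and no difference was tested. Each peak carries a score, 10 times the negative log10 of the p-value of the peak caller. Scores grow with library depth and peak width, and are compared within a list alone. The lists reach down to a score of 40, although the threshold in the study's methods corresponds to 50, and 3 of the 40 RNAP2 and 7 of the 21 Med12 peaks scored below 50. They give no read counts, so that the depth at a peak is unknown and weaker binding would not be seen.

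Myc proteins pair with Max on E-box sequences and drive genes of growth and metabolism. D-type cyclins activate Cdk4 and Cdk6, which phosphorylate the retinoblastoma protein and let cells leave G1. Members of both families respond to mitogens and to developmental signals such as Wnt, Fgf and Hedgehog, and Mycn is known to act in the proliferating limb mesenchyme. RNAP2 marks promoters and transcribed DNA. The sample labels do not state which form of the polymerase the antibody binds, so peaks along genes are those of this antibody. Med12 belongs to the kinase module of Mediator, which links factors on enhancers to the polymerase. The study mapped both proteins to locate candidate enhancers.

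RNAP2 lay at the start of 5 of the 6 genes and Med12 at the start of Mycn alone. A start is the most upstream start of a protein-coding transcript, and a peak was counted when it came within 1 kb of it. Among all protein-coding genes, 40.2% had an RNAP2 peak there, 8.22% a Med12 peak and 7.60% peaks of both lists. The exception for RNAP2 was Ccnd3, whose most upstream coding start had no peak of either list within 1 kb. Its other coding start, far downstream in the annotated gene, had one. With the start of any coding transcript allowed, all 6 genes had an RNAP2 peak, against 41.8% of all genes.

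Sequence upstream of a start is shown for the highest RNAP2 scores, Ccnd2, Mycn and Myc. Each line gives the 250 bases that precede the start in mm9, 5′ to 3′ on the strand of the gene. They are chr6:127101067-127101316 (minus strand) for Ccnd2, chr12:12948721-12948970 (minus) for Mycn and chr15:61816696-61816945 (plus) for Myc. Capitals mark the GC box GGGCGG and the TATA box TATAAA on either strand.
Ccnd2: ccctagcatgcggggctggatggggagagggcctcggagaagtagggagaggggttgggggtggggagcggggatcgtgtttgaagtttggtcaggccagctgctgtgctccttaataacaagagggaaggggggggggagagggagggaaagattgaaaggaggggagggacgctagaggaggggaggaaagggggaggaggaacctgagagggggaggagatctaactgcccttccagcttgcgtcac
Mycn: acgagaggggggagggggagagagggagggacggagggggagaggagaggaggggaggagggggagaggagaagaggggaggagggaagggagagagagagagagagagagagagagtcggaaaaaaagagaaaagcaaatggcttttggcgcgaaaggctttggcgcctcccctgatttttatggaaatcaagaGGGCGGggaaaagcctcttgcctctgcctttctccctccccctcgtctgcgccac
Myc: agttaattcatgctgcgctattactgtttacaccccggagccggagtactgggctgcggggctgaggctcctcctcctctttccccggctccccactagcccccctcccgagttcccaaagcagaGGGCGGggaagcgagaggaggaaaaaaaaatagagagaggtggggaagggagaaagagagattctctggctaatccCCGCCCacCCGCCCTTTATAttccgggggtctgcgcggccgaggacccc

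The GC box GGGCGG and the TATA box TATAAA, together with the E-box CACGTG to which Myc itself binds and the E2F-type sequence GCGGGAA, were searched on both strands from 250 bases before to 50 bases after the starts of Ccnd2, Mycn, Myc and Mycl1 and both coding starts of Ccnd3. GGGCGG and GCGGGAA can share bases. The GC box occurred 3 times at Myc, 2 times at Mycn and 2 times at either start of Ccnd3, and not at Ccnd2 or Mycl1. It is found in 44.0% of all start windows and in 67.3% of those with an RNAP2 peak. Among these windows the TATA box occurred at Myc alone, on the other strand. On the strand shown it reads TTTATA and begins at position -35 from the start. The motif TATAAA is held by 13.4% of all start windows and 6.55% of those with an RNAP2 peak. None of these windows had CACGTG or GCGGGAA, which 7.78% and 5.73% of all start windows hold. The GC content was 58.7% to 67.0%, against a median of 55.3% over all genes.

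Mycn, the N-Myc gene (chr12:12942902-12948720, minus strand), was the gene with peaks of both lists at the start. An RNAP2 peak of 3407 bp with a score of 1335 covered it, reaching 1919 bp upstream and 1487 bp into the gene. A Med12 peak of 1274 bp with a score of 168 lay wholly inside this peak, its centre 110 bp from that of RNAP2. This is a high Med12 value for a start, since Mycn ranked 165 of the 1837 genes with Med12 at the start. For RNAP2 it ranked 1455 of 8979.

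Ccnd2, the cyclin D2 gene (chr6:127075797-127101066, minus strand), had the highest RNAP2 score at a start among the 6 genes, and no Med12 peak there. The RNAP2 peak was 1270 bp wide, near the median width of 1328 bp in its list, with a score of 1546 and rank 1168 of 8979 genes. It also overlaps an intron of the long noncoding RNA gene 9330179D12Rik, and starts of that RNA lie within 1 kb of it. Signal of the noncoding RNA and of Ccnd2 cannot be told apart in this peak. Further RNAP2 peaks lay along the gene. A peak with a score of 56.9 lay in an intron, also within 1 kb of a start of this noncoding RNA. Another of 72.9 lay in an intron towards the far end, and peaks of 108 and 43.8 had their centres in the 3′ UTR. RNAP2 peaks covered 25.7% of the 25270 bp of Ccnd2.

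Myc (chr15:61816946-61821929, plus strand) had adjoining RNAP2 peaks and no Med12 peak at its start. The first, 2220 bp wide and scoring 681, covered the start, and the second, 2002 bp wide and scoring 300.1, followed inside the gene. Together they covered 58.2% of the gene span, the largest share of the 6 genes, against a median of 4.87% among genes with an RNAP2 peak at the start. Myc is also the shortest of the 6 genes, with 4984 bp, and the share depends on gene length. By start score it ranked 2995 of 8979.

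At Ccnd1, the cyclin D1 gene (chr7:152115836-152125774, minus strand), RNAP2 was broken into 3 peaks around the start and no Med12 peak was found. The peak that covered the start had a score of 117, less than the 299.6 of a peak that begins 839 bp upstream. A further peak of 152 lay 1661 bp inside the gene, near the start of a retained-intron transcript. The highest of the start scores placed Ccnd1 at rank 5169 of 8979.

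Mycl1, the L-Myc gene (chr4:122672895-122679728, plus strand), had the lowest RNAP2 start score of the 5 genes that had one. This score is that of the highest peak within 1 kb of the start. The Mycl1 peak of 1821 bp had a score of 162 and ranked 6636 of 8979 genes. The peak that covered the Ccnd1 start was lower, at 117, and Ccnd1 ranked higher through its upstream peak. Most of the Mycl1 peak lay downstream of the start, 1405 bp against 415 bp upstream. No Med12 peak was near.

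Ccnd3, the cyclin D3 gene (chr17:47642000-47736632, plus strand), is annotated with coding starts at 47642000 and 47730416. An RNAP2 peak of 1932 bp with a score of 389 covered the second. The nearest peak to the first, with an RNAP2 score of 837 and a Med12 score of 56.8, lay 2266 bp upstream and covered the start of Taf8, a subunit gene of the general factor TFIID. Inside Ccnd3, an RNAP2 peak of 125 and a Med12 peak of 94.9 shared 1230 bp in an intron downstream of the second start.

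**Figure D1:**
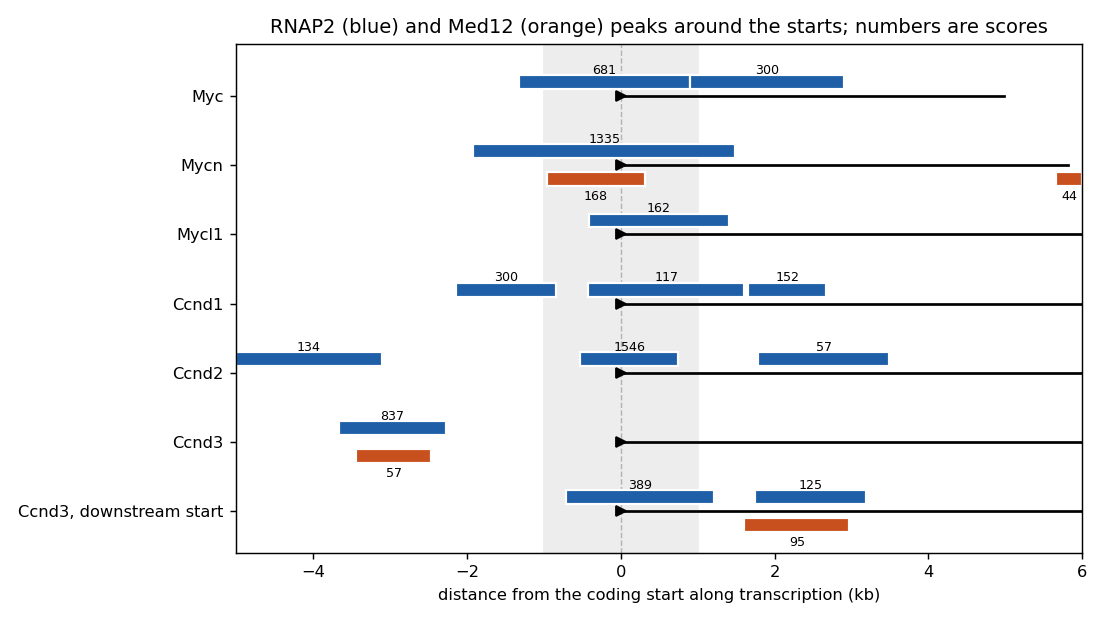
RNAP2 (blue) and Med12 (orange) peaks from 5 kb upstream to 6 kb downstream of each coding start, in kb along the direction of transcription, with the score beside each bar. Black lines are the genes, shading marks 1 kb on each side of the start, and bars at the edges are cut off there. Med12 overlies the start at Mycn alone, and Ccnd3 has RNAP2 at its downstream start.

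**Figure D2:**
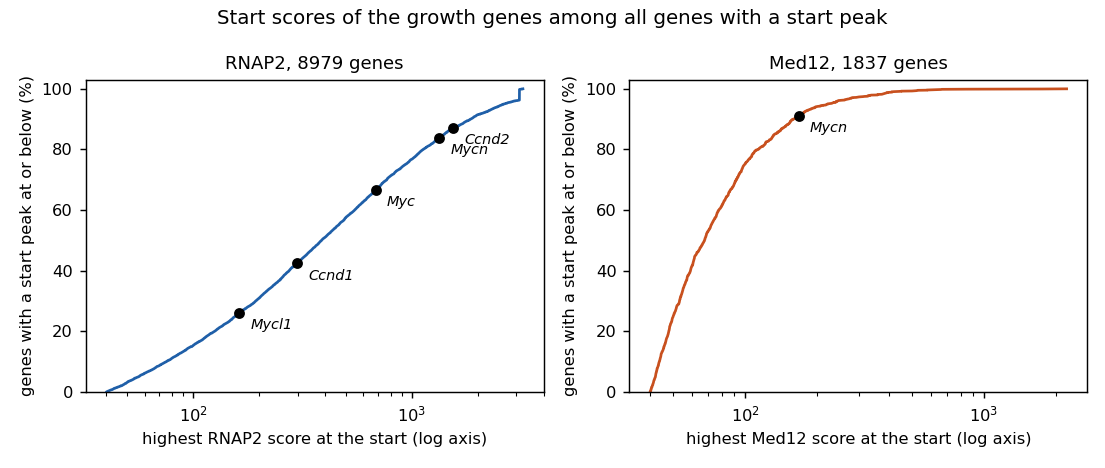
Cumulative share of genes (percent) against the highest score of a peak at the start, on a log axis, for the 8979 genes with RNAP2 and the 1837 with Med12. Black points are the growth genes, which run from Mycl1 at 162 to Ccnd2 at 1546 for RNAP2, with Mycn at 168 for Med12.

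Without replicates the order of the RNAP2 start scores, Ccnd2, Mycn, Myc, Ccnd1 and Mycl1, is that of this library. It rests on the highest peak within 1 kb of each start. By the peaks that cover the start, Ccnd1 (117) falls below Mycl1 (162). Over all genes with an RNAP2 peak at the start the median score was 386, so that Ccnd2, Mycn and Myc lay above it and Ccnd1 and Mycl1 below.

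Away from starts the genes differed in the number of peaks. A distal peak is one with no annotated transcript start of any kind within 1 kb. There were 17 distal RNAP2 peaks and 17 distal Med12 peaks, and they were unevenly spread. Ccnd2 had 8 and 6, Mycn had 2 and 5, Mycl1 had 4 and 2, Ccnd3 had 3 and 3, Myc had 0 and 1, and Ccnd1 had none. The median gene had 1 of either kind, and the 90th percentile of all genes was 5 for RNAP2 and 3 for Med12. A distal RNAP2 peak that shared at least 1 bp with a Med12 peak was found for 4 of the 6 genes, against 22.8% of all genes. There were 10 of these shared sites, 5 of them near Ccnd2, 2 near Mycn, 2 near Mycl1 and 1 near Ccnd3. That of Ccnd3 lies close to its downstream coding start and no longer counted as distal with 5 kb around starts, nor was it shared with scores of at least 100, which leaves shared sites at 3 genes. With scores of at least 50, Mycl1 kept 1 and Ccnd2 kept 4.

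**Figure D3:**
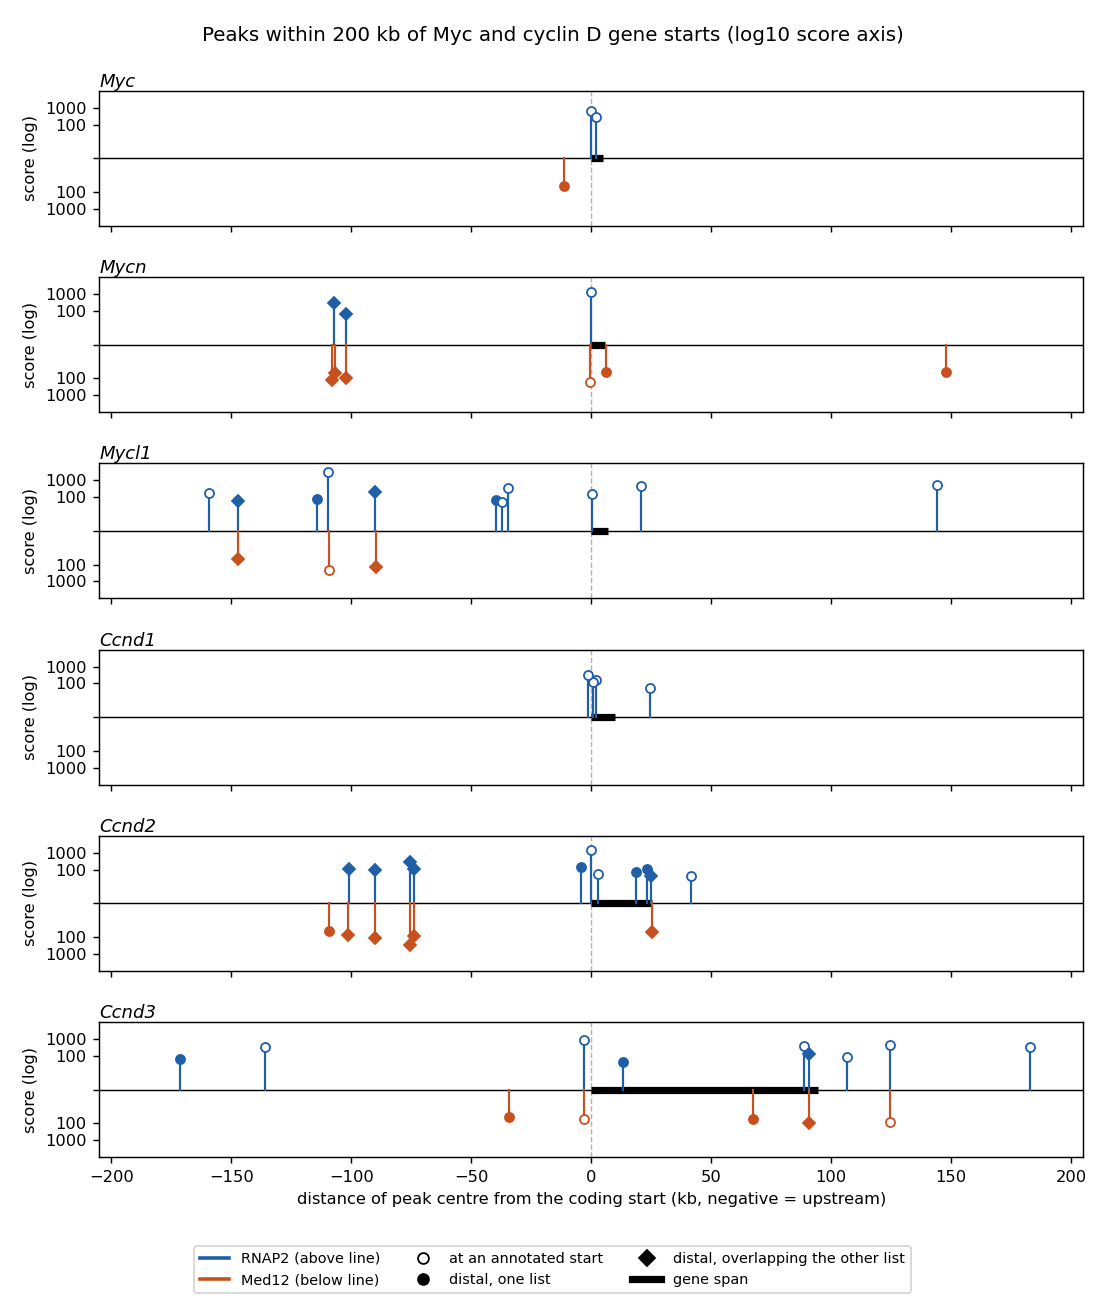
Peaks within 200 kb of each start against the distance of their centre in kb, with RNAP2 scores above the line and Med12 scores below it on a log scale. Diamonds are distal peaks that overlap the other list, filled circles other distal peaks, and open circles peaks at annotated starts. Ccnd2 and Mycn have groups of shared sites upstream, while Myc and Ccnd1 have none.

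**Figure D4:**
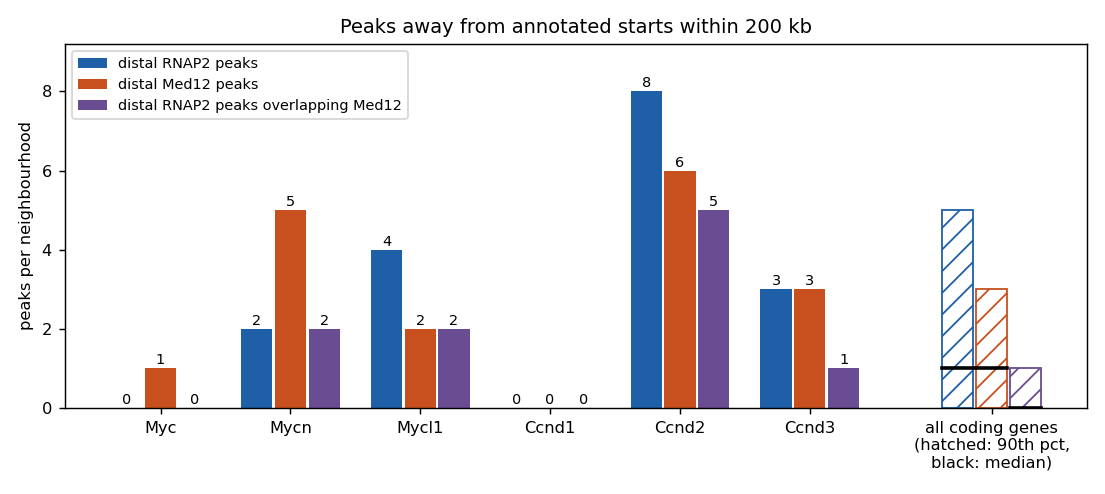
Number of distal RNAP2, distal Med12 and shared distal peaks per gene (bars), with the median (black line) and 90th percentile (hatched) of all protein-coding genes. Ccnd2 has 8, 6 and 5, and Ccnd1 has 0 of each.

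Ccnd2 had a group of shared sites upstream. Within 28.8 kb (chr6:127174274-127203070), 4 RNAP2 and 4 Med12 peaks overlapped, each with its centre in intergenic sequence. The nearest, centred 73.9 kb from the start, had an RNAP2 score of 107 and a Med12 score of 81.3. Beside it at 75.5 kb lay the strongest, with scores of 297 and 309, the latter rank 251 of 10634 in the Med12 list. A site whose near edge lay 89302 bp upstream (97.6 and 116) and one at 101 kb (114 and 74.7) followed. The distal RNAP2 peak nearest to the start, 4.13 kb upstream in an intron of 9330179D12Rik, scored 134 and overlapped no Med12 peak. The other shared site of Ccnd2 lay at the opposite end, where an RNAP2 peak of 43.8 in the 3′ UTR met a Med12 peak of 53.5 by 423 bp. Only 0.523% of all protein-coding genes had as many shared sites within 200 kb. The upstream group spans its nearest coding start, that of the predicted gene Gm4968. This start lies 6480 bp beyond the strongest RNAP2 peak and 6594 bp before the next RNAP2 peak of the group. Of the 5 other coding genes of this neighbourhood, 9630033F20Rik had an RNAP2 peak at its start, with a score of 41.1, and none had Med12. Fgf6 and Fgf23, which also lie there, had no peak at the start.

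Mycn had a similar, smaller group. Within 6849 bp (chr12:13050343-13057191) lay 2 RNAP2 and 3 Med12 peaks, all overlapping the other list. At 102 kb upstream an RNAP2 peak of 65.3 and a Med12 peak of 91.9 shared 970 bp. At 107 kb an RNAP2 peak of 2314 bp with a score of 317 overlapped Med12 peaks of 45.4 and 122. Unlike the sites near Ccnd2, these had Mycn as the nearest coding start. As many as 2 shared sites were found for 6.78% of all genes, and as many as 5 distal Med12 peaks for 2.90%. Only 2 of these 5 Med12 peaks scored at least 50, while both shared sites were kept at that score. The remaining Med12 peaks, of 43.85 across the 3′ end of the gene and 44.0 in an exon of the noncoding RNA gene Gm17337, overlapped no RNAP2 peak.

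Mycl1 had shared sites at 90.1 kb upstream, between genes, with scores of 214 for RNAP2 and 142 for Med12, and at 147 kb upstream in an intron of Ppt1, with 58.2 and 48.5. Both were nearer to other coding starts, those of Cap1 and Ppt1. The distal RNAP2 peak nearest to Mycl1, 39.8 kb upstream in an intron of Mfsd2a, scored 63.5 and overlapped no Med12 peak. The neighbourhood has 9 other coding genes, and 5 of them (Cap1, Mfsd2a, Ppie, Ppt1 and Trit1) had RNAP2 at the start, against 40.2% of all genes. The start of Cap1, which encodes an actin regulator, had an RNAP2 peak of 3100 and a Med12 peak of 218, far above those of Mycl1 itself. The value 3100 recurs at 311 RNAP2 peaks. Around Ccnd3, 7 of 12 other coding genes had RNAP2 at the start, against 40.2% of all genes. Some starts lay at the same RNAP2 peak, as those of Frs3 and Tomm6. Med20, Taf8 and Usp49 also had Med12, against 8.22% of all genes, with Med20 and Usp49 at the same Med12 peak. The distal peaks of Ccnd3 other than the shared intronic site scored 43.0 and 68.5 for RNAP2 and 44.4 and 56.8 for Med12.

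Myc and Ccnd1 had no shared site within 200 kb. Myc has no other protein-coding start within 200 kb, and the distal peak found was a Med12 peak with a score of 44.25 at 11.1 kb upstream, a value that 18.4% of the list lay below. The noncoding gene Pvt1, which starts 52596 bp downstream of the Myc start, had no RNAP2 peak at its start, the nearest being the second peak of Myc, 49693 bp away. Around Ccnd1, Oraov1 had an RNAP2 peak of 56.2 at its start, while the other 5 coding genes, among them Fgf3, Fgf4 and Fgf15, had none.

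The reference sequence (mm9, plus strand, 300 bases around the middle of the overlap) is given for the strongest shared site upstream of Ccnd2 and another with an E-box, for both sites of Mycn and for the intergenic site of Mycl1. They are chr6:127176376-127176675, chr6:127190951-127191250, chr12:13050684-13050983, chr12:13056522-13056821 and chr4:122582661-122582960. Capitals mark CACGTG, the posterior Hox-type sequence CAATAAA and the Tcf/Lef-type sequence CTTTGAT on either strand.
Ccnd2, strongest site: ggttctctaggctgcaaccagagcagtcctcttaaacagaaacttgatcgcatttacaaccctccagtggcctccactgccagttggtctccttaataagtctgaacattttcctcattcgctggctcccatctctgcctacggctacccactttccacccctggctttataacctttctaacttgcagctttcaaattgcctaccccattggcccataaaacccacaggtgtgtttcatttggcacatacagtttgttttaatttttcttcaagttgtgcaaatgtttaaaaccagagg
Ccnd2, site with an E-box: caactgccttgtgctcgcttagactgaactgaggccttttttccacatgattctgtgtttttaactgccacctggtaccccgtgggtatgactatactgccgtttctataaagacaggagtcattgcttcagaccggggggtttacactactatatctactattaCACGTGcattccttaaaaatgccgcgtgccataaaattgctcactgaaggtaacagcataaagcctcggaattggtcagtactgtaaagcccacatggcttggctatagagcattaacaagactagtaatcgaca
Mycn, nearer site: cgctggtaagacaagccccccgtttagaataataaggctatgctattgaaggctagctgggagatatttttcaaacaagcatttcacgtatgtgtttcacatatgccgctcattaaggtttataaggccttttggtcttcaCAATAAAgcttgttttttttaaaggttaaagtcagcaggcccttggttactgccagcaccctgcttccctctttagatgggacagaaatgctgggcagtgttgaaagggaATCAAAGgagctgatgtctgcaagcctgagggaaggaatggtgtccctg
Mycn, farther site: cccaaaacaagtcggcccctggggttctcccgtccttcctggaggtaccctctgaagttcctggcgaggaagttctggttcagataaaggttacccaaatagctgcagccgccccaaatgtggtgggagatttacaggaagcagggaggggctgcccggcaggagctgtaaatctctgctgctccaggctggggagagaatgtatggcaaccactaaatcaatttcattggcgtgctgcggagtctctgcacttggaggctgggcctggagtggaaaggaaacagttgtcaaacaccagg
Mycl1, intergenic site: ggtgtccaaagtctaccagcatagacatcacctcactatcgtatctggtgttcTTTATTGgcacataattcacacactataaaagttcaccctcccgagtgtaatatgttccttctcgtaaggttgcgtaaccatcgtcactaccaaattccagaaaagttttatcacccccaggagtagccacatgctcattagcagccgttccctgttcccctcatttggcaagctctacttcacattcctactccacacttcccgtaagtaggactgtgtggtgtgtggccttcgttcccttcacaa

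Windows of this kind were searched at all 10 shared sites and at the 2669 shared distal sites of the whole lists. Where an RNAP2 peak overlapped several Med12 peaks, the overlap with the highest Med12 score was used. For the Ccnd2 RNAP2 peak of 107, the window thus lay where it met the Med12 peak of 309. Its overlap with the Med12 peak of 81.3 was not searched. CACGTG occurred at 2 of the 10, near Ccnd2 and in Ppt1, and at 3.97% of all. CAATAAA occurred at 2, near Mycn and Mycl1, against 15.9% of all. CTTTGAT occurred at 1, the nearer site of Mycn, against 6.14%, and the Gli-type sequence GACCACCCA at 0, against 0.150%. The motifs do not overlap in these windows. With 10 windows, of which those near one gene lie close together, these are descriptions of the reference and not evidence of binding.

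In the neighbourhoods of the growth genes, 58.8% of distal RNAP2 peaks overlapped a Med12 peak (10 of 17, 95% Wilson interval 36.0 to 78.4%), against 2669 of 10692 in the whole list (24.2 to 25.8%). For distal Med12 peaks the share was 64.7% (11 of 17, 41.3 to 82.7%), against 32.5% (31.6 to 33.5%). The intervals cover counting error alone, and peaks of a group near the same gene are not independent. For example, adjoining RNAP2 peaks of 107 and 297 near Ccnd2 both overlap the Med12 peak of 309. The genes were not drawn at random either, so the intervals are no test of a difference. Without Ccnd2 the shares were 55.6% (26.7 to 81.1%) for RNAP2 and 54.5% (28.0 to 78.7%) for Med12, and the latter interval includes the share in the whole list. Shared peaks had the higher scores here, with a median of 111 against 72.9 for RNAP2 and 91.9 against 44.2 for Med12, as in the whole lists, where the medians were 137 against 66.5 and 87.8 against 50.1. Of the distal peaks, 12 of 17 in either list lay upstream of the start. The centre was intergenic for 7 of the RNAP2 peaks and 13 of the Med12 peaks, and the member itself was the nearest coding start for 5 in either list.

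Partners of these proteins were examined as a fixed list of 36 genes of the Myc network and the G1 machinery. RNAP2 lay at the start of 30 of them, against 40.2% of all genes. Med12 lay at the start of 7, against 8.22%. Among all genes, 1700 of the 8979 with RNAP2 at the start also had Med12. The 7 partners with Med12 all had RNAP2, and so are 7 of 30. They were Mxi1 (RNAP2 score 66.6, Med12 score 85.1), Mnt (1162 and 68.5) and Mga (853 and 47.9), which encode partners or antagonists of the Max network, Cdk6 (278 and 42.3), a kinase of the D-type cyclins, Rbl1 (1138 and 94.0), a retinoblastoma relative, and E2f1 (80.4 and 47.8) and E2f3 (767 and 55.5), factors held by that family. None reached the Med12 score of Mycn. Cdk4, the other kinase, had RNAP2 with a score of 602. Neither list had a peak at the start of Mlx, Ccne1, Rb1, E2f6, Cdkn1a or Cdkn2b, although another coding start of Cdkn1a, the p21 inhibitor, had an RNAP2 peak of 665. A shared distal site lay within 200 kb of 12 of the 36, against 22.8% of all genes. Cdkn2a and Cdkn2b had the same distal counts, with 1 shared site each, so the same site may be counted for both.

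The tissue label was checked on marker genes, against 40.2% of all genes with RNAP2 at the start. RNAP2 lay at the start of all 7 listed genes of limb mesenchyme (Hoxa13, Hoxd13, Hoxd12, Prrx1, Msx1, Tbx5 and Lhx9). The lowest score of these was 204 at Lhx9, which had 1904 at another coding start. RNAP2 was found at 0 of 6 markers of ectoderm, 0 of 4 of blood and 0 of 3 of neural cells. It was found at 1 of 4 of muscle (Pax3, score 283) and 1 of 4 of endothelium (Kdr, 148). Of cartilage, 2 of 3 had it (Sox9, 2379, and Col2a1, 2172). Both markers of proximal limb had it (Meis1, 581, and Meis2, 43.0), as did 1 of 2 of hindlimb (Pitx1, 99.3). Meis1 and Meis2 also had Med12 at another coding start, with scores of 42.2 and 49.8. Among the 7 listed genes of limb mesenchyme, Hoxd13 and Hoxd12 had the same RNAP2 score of 1855 and may share a peak. Prrx1 alone of these had Med12 at the start. The part of minor cell types in the peaks of the growth genes was not tested.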

How the data were processed

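Distal forelimb chromatin was immunoprecipitated for RNAP2 or Med12 and sequenced. After removal of the leading base, reads were aligned to the mm9 assembly by the authors using Bowtie. Redundant reads were discarded before peak calling by MACS 1.4.1. The deposited value of a peak is a score, its p-value on a negative log10 scale multiplied by 10. The use of the input as control is not given in the sources used here. Genes and starts were those of GENCODE mouse version 1 on the same assembly, and BED positions were converted to 1-based coordinates. Peaks were counted with Python 3.11.15, numpy 2.4.6 and scipy 1.17.1 (95% Wilson intervals), sequence was read with pysam 0.24.0, and figures were drawn with matplotlib 3.10.9. The overlap code was tested on simulated intervals and against bedtools. The sequence around the Ccnd1 start is not reported here.

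Named were the 6 members, partner genes with peaks of both lists or of neither at the start (Cdk4 and the second start of Cdkn1a were added after their values were seen), neighbouring genes with both or near a named site (Fgf genes, Oraov1, 9630033F20Rik and Pvt1 were also added then), start peaks, the nearest distal sites, up to 3 shared distal sites per member, and the 2 genes most like each member. The members and lists were chosen with earlier results of these data known. No group was compared by a test, since each antibody has 1 library.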

Additional observations from a re-analysis of the deposited data

How the results depend on the processing

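No paired analysis was possible because the 2 lists come from unreplicated libraries and hold no numbered replicates. The 8 totals over the 6 genes were recomputed under those of 10 alternatives that apply to each, and under a window around the downstream start of Ccnd3, which was chosen after seeing the data and left the 5 totals recomputed under it within 1.5 times their reported values. Of 48 recomputed totals, 33 stayed within 1.5 times and 15 moved further. With a score of at least 50, distal Med12 peaks fell from 17 to 10. With a score of at least 100, there were 26 RNAP2 and 6 Med12 peaks, 8 and 4 of them distal, and 4 shared sites, since fewer peaks were left. With 5 kb on each side of a start, 2 genes had Med12 and 2 had both at the start, the added one being Ccnd3 through the peak at Taf8. A window of 100 kb left 12 Med12 peaks, 10 of them distal, and lost the shared sites of Mycn. The shared site of Ccnd3 was lost with 5 kb around starts and with a score of at least 100. A window of 500 kb held 73 RNAP2 and 43 Med12 peaks, 39 and 33 of them distal, and 19 shared sites. The number of genes with RNAP2 at the start was 5 or 6 under both score minimums and all 3 other definitions of a start. Depth at single peaks is unknown, so a missing peak does not show missing binding.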

Other observations

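The nearest shared site to Myc lay 2140 kb downstream of its start, in an intron of Asap1 (RNAP2 score 285.6, Med12 score 67.4), and on the other side the nearest was 3297 kb away, in Fer1l6. The median over protein-coding genes was 563 kb, and 13.3% of genes were as far from a shared site as Myc. Ccnd1 had its nearest shared site 240 kb upstream, with scores of 206 and 86.7, and a window of 500 kb held 3. In the same window Mycn had 6, with 8 distal RNAP2 and 11 distal Med12 peaks. Ccnd2 also had 6 there, with 9 and 7, so it no longer had more shared sites than Mycn. Ccnd3 had 2, with 13 and 5, and Mycl1 had 2, with 5 and 4.

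Genes with the most similar values were found by the distance over 4 numbers, the start scores and distal peak counts of both lists on log scales. The closest to Mycn were Cyr61 (distance 0.44) and Vcam1 (0.48), and to Ccnd2 they were Pdgfc (0.15) and Rai14 (0.21), and no gene came within 0.05 of either. For Myc they were Cenpq and Mut, for Mycl1 Ccdc163 and Mmachc, for Ccnd1 Enox2 and Ap3b1, and for Ccnd3 1110021L09Rik and 1700001C19Rik, all at 0.00 after rounding. Within 0.05 there were 32 genes for Myc, 6 for Mycl1, 91 for Ccnd1 and 101 for Ccnd3, so that these names carry little. The values are of 2 lists from 1 library each.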
